A study of Mus musculus with 6 samples.

Results

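The 37 genes described here are targets and partners of activating transcription factor 4 (ATF4), the transcription factor at the centre of the integrated stress response. They were chosen as a pathway list and matched by gene symbol, and all 37 were found among the 23995 genes of the deposited expression table. They comprise 5 transcription factor genes, 4 feedback and stress effectors, 3 genes for secreted factors and a lipoprotein receptor, 3 amino acid transporter genes, 10 genes of amino acid and one-carbon synthesis, and 12 aminoacyl-tRNA synthetase genes.

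In the integrated stress response, kinases that sense amino acid shortage, unfolded protein, haem shortage or viral RNA phosphorylate the initiation factor eIF2, which lowers general translation and raises translation of the *Atf4* mRNA. ATF4 protein then binds composite C/EBP-ATF elements and drives genes that import and make amino acids, charge tRNAs, and feed back on the response. In the heart the pathway is known from mitochondrial dysfunction and pressure overload, where *Atf5*, *Gdf15*, *Fgf21*, *Trib3* and serine synthesis genes are among its usual readouts. Because ATF4 is controlled largely at translation, the *Atf4* transcript itself is not a measure of ATF4 protein.

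Hearts came from mice operated on at 10 to 12 weeks of age by transverse aortic constriction (TAC), in which a suture around the aortic arch makes the left ventricle pump against a higher pressure. The LTBP4-CKO group (3 libraries) carried an inducible, cardiomyocyte-specific knockout of *Ltbp4*, the gene for latent TGF-beta binding protein 4, and the WT group (3 libraries) was labelled wild type. Library names of the WT group carry the word flox, but the labels leave unsaid if the WT mice had floxed alleles or Cre, which promoter drove Cre, which agent induced it, and how long after surgery the hearts were taken. TAC was common to both groups and hearts without surgery were not analysed here, so the values below compare genotypes after TAC, in heart RNA.

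Sequence context was read from RefSeq promoter windows (build GRCm38.p6, the build named mm10 in the study), each running from 250 bases before to 50 bases after an annotated start. Windows were found for 30 of the 37 genes, and 7 had none (*Slc7a5*, *Cth*, *Cars*, *Wars*, *Nars*, *Mars* and *Lars*). The letters TGATGNAA, the core shared by C/EBP-ATF elements, were searched on both strands, and no other motif was searched. They occurred in the windows of 13 of the 30 genes (43.3%), against 1219 of 27025 genes with a window (4.51%), and in 5 of the 7 synthetase genes that had one. The genes were listed as targets and partners of ATF4, which binds such elements, so the higher share may follow from that choice. A match describes letters in a window and is not a measured binding site. The following 30-base stretches are shown because they belong to the genes whose values are given in most detail and to the synthetases that hold the motif. Each is written 5′ to 3′ on the strand stated, turned so that the motif reads TGATGNAA, with the motif in capitals.
Nupr1, chr7:126625562-126625591, plus strand: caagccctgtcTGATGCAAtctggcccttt
Chac1, chr2:119351038-119351067, minus strand: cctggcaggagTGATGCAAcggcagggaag
Trib3, chr2:152344028-152344057, plus strand: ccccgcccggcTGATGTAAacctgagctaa
Fgf21, chr7:45615611-45615640, plus strand: gcctggacggaTGATGCAAtgggggggtct
Asns, chr6:7693214-7693243, minus strand: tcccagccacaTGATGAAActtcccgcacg
Iars, chr13:49682126-49682155, minus strand: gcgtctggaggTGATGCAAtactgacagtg
Gars, chr6:55037960-55037989, minus strand: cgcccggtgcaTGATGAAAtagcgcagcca
Aars, chr8:111033840-111033869, minus strand: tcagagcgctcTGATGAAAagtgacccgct
Tars, chr15:11399655-11399684, plus strand: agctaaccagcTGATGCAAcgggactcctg
Yars, chr4:129189895-129189924, plus strand: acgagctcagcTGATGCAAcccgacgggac

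In the 13 genes the motif occurred 15 times, 4 times on the strand of the gene and otherwise on the opposite one. Counted along the strand of the gene from the annotated start at 0, its first base was at −110 in *Nupr1*, at −193 in *Chac1*, at −23 in *Asns* and at 7 in *Iars*. In *Slc7a11*, *Vldlr* and *Pycr1* it was also present. *Nupr1* is the member with the lowest p in the comparison below, so the 250 bases before its start are given on the gene's strand, chr7:126625471-126625720, minus strand, with the complement of the motif in capitals.
Nupr1 promoter: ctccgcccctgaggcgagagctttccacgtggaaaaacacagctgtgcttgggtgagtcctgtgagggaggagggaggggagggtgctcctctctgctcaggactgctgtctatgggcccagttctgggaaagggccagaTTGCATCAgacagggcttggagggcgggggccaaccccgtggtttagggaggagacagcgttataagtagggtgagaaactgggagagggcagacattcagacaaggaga

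Levels are in FPKM, fragments per kilobase of transcript scaled to library size, as the authors deposited them. Depth recovered from the steps of low values was low, at about 5900000 to 14100000 fragments in LTBP4-CKO libraries and 3600000 to 5900000 in WT libraries. LTBP4-CKO libraries 2 and 3 differed by little more than counting noise, as did WT libraries 1 and 3 (1.28 to 1.87 times the counting variance), whereas the other 13 pairs reached 85.3 to 285 times that variance among the deepest genes. Each close pair was therefore averaged and counted as 1 sample, which left 2 LTBP4-CKO and 2 WT samples. No label says that libraries came from separate animals, and p-values rest on the spread between these samples. The test used below, limma, moderates each gene's variance toward that of other genes. Its SEs, intervals and p-values therefore do not measure the spread of 1 gene's samples alone. *Ltbp4* was at 139, 199 and 195 FPKM in LTBP4-CKO libraries 1 to 3 and at 368, 248 and 357 FPKM in WT libraries 1 to 3, so the groups did not overlap, and the log2 difference was −0.86 (SE 0.49). Of the 10 cardiomyocyte markers, all were detected in every library, with summed levels of 21572 to 68290 FPKM in LTBP4-CKO and 6772 to 25232 FPKM in WT.

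No gene of the pathway passed the test. Of the 37 genes, 33 had at least 1 FPKM in 3 or more libraries and were tested, and *Fgf21*, *Slc7a11*, *Pycr1* and *Cth* were not. By limma on log2(FPKM + 1), with Benjamini-Hochberg adjustment over 12485 genes, 0 of the 33 had an adjusted p under 0.05, and every one of the 33 had an adjusted p of 0.999. Over all genes tested, 0.00801% were called higher (1 gene, *Esr1*, which is no member) and 0% were called lower. *Esr1* was at 1425, 781 and 758 FPKM in LTBP4-CKO libraries 1 to 3 and at 0, 0.202 and 0 FPKM in WT libraries 1 to 3. The source of that signal was not tested. At an unadjusted p under 0.05 there were 2 of the 33, *Nupr1* and *Iars*, against a background of 3.00% of all genes (374 genes). In the 33, the estimate was higher in LTBP4-CKO in 19 and lower in 14, a share of 57.6% higher against 54.2% over all genes tested, and the median log2 difference was 0.12 against 0.04. With libraries scaled to equal totals, which moved the median of all genes to −0.08 (5293 of 12485 genes higher, against 6764 as deposited), 16 of the 33 were higher and their median was −0.01. Without LTBP4-CKO libraries 2 and 3 the median of the 33 was −0.17, with 12 higher, and without LTBP4-CKO library 1 it was 0.25, with 22 higher. All 3 LTBP4-CKO libraries lay above all 3 WT libraries for *Atf4*, *Slc7a5*, *Eprs* and *Iars*, which is 12.1% of the 33 against a background of 10.4%. They lay below them for *Atf5*, *Nupr1* and *Chac1*, which is 9.09% against a background of 11.5%. These shares were near those of all genes tested.

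The standard errors of the 33 estimates ran from 0.34 to 0.82, with a median of 0.43 on the log2 scale. The gap between the genotype means exceeded the larger of the gaps between the samples of 1 genotype for *Atf5*, *Cebpb*, *Nupr1*, *Psph*, *Eprs* and *Iars*. That is 18.2% of the 33, against 17.6% of all genes tested. For the other members, the estimated gap between genotypes was no larger than the gap between samples of 1 genotype. That does not show that their difference is small or absent. *Atf4*, *Slc7a5* and *Chac1* are among them though their libraries did not overlap, while *Cebpb* and *Psph* met the rule with overlapping libraries.

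**Figure D1:**
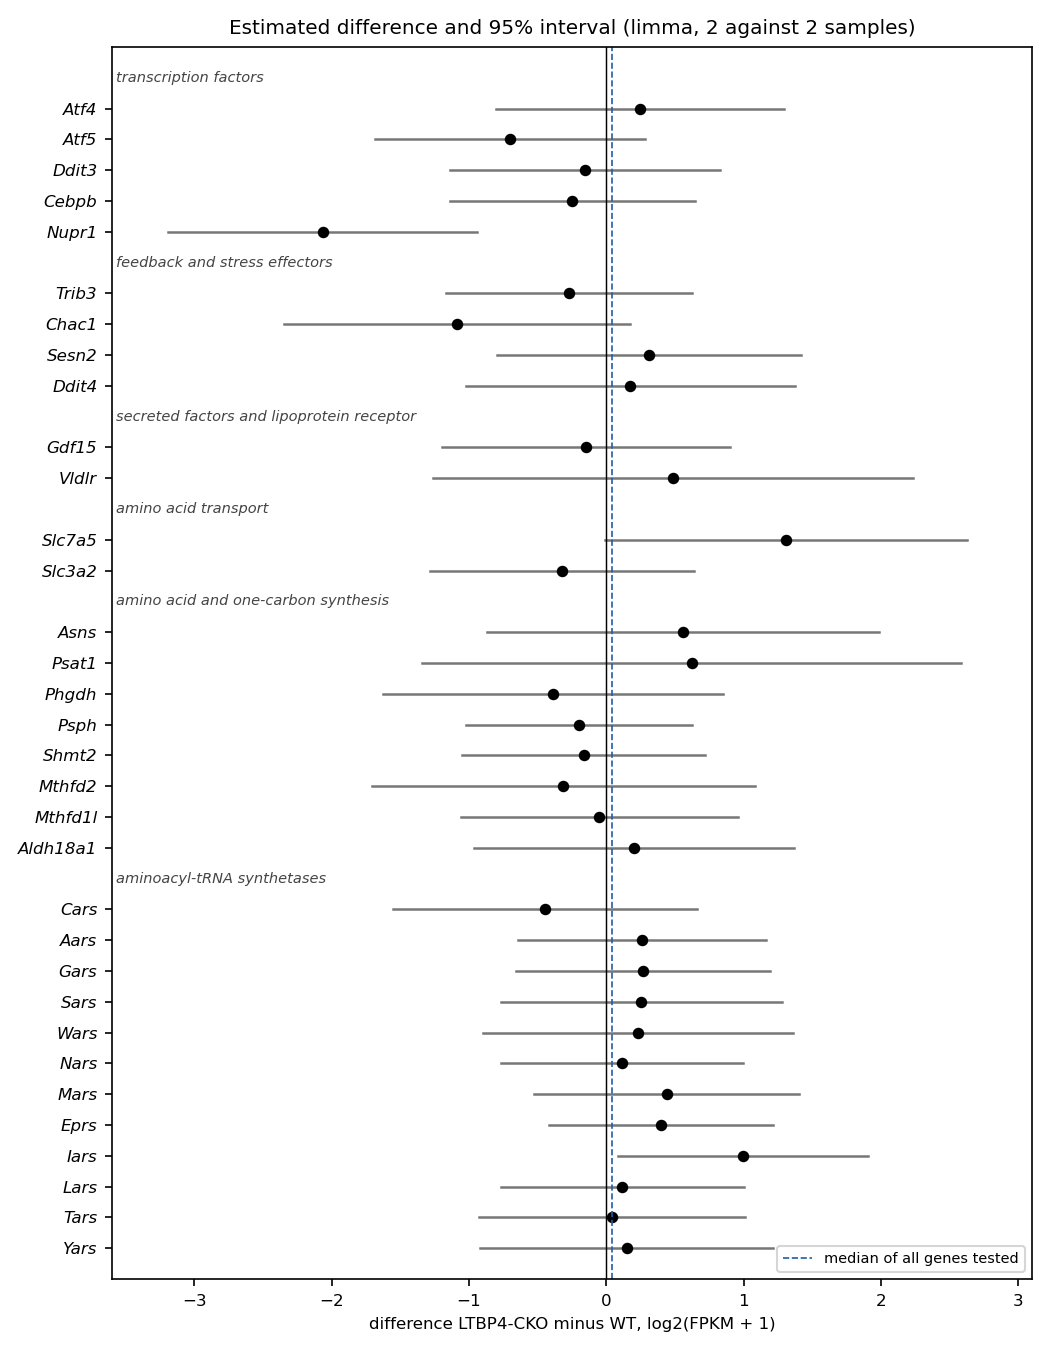
Estimated log2 difference (LTBP4-CKO minus WT, log2(FPKM + 1) scale) of the 33 tested genes with its 95% interval from limma, by role, and the median of all genes tested as a dashed line at 0.04. Intervals of *Nupr1* (−3.19 to −0.94) and *Iars* (0.09 to 1.91) lie on 1 side of 0, before adjustment, and all others include 0.

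The transcription factor genes had estimates in both directions, with 1 of 5 higher and a median of −0.25. *Nupr1*, which encodes a small stress-induced nuclear protein that acts with chromatin regulators, was the member with the lowest p (chr7:126623246-126625470, minus strand). It was at 126, 91.6 and 117 FPKM in LTBP4-CKO libraries 1 to 3 and at 564, 421 and 550 FPKM in WT libraries 1 to 3. The 3 LTBP4-CKO libraries were all well below the 3 WT libraries, and the gap between genotypes exceeded that between the samples of either genotype. The means were 115 ± 15.5 FPKM in LTBP4-CKO and 489 ± 95.9 FPKM in WT (SD, n = 2 samples each), a ratio of 0.236, and the log2 difference was −2.07 (SE 0.47, unadjusted p = 0.004 by limma, adjusted p = 0.999). Of all genes tested, *Nupr1* ranked at place 21 by p. At the length of its longest annotated transcript, its level equals about 1170 to 3784 fragments in LTBP4-CKO libraries and 3361 to 6934 in WT libraries. That transcript (2449 bases) is longer than the deposited locus, so these numbers are probably too high.

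Marker lists of cell types differed in both directions, some in that of *Nupr1*. All 10 tested macrophage and monocyte markers were lower in all 3 LTBP4-CKO libraries, with summed levels of 733, 556 and 574 FPKM there and of 1793, 886 and 1848 FPKM in WT libraries. All 9 fibroblast markers had lower estimates, with sums of 3640, 1059 and 1072 FPKM in LTBP4-CKO and of 5608, 2478 and 5562 FPKM in WT, which overlap. All 6 tested atrial markers had lower estimates as well, with sums of 13932, 290 and 279 FPKM in LTBP4-CKO and of 37551, 1587 and 37639 FPKM in WT. For the adipocyte markers all 6 tested estimates were lower (median −3.49), 5 of them without overlap. Their sums did overlap, at 6978 to 16278 FPKM in LTBP4-CKO and 11133 to 14009 FPKM in WT. The overlap of the sums comes from the 1 tested marker that overlapped, since the other 5 were lower in all 3 LTBP4-CKO libraries. *Lep* was at 0 in all 6 libraries and *Adipoq*, *Plin1* and *Retn* were at 0 in some. Smooth muscle and pericyte markers had lower estimates in 5 of 7 (median −0.50, and 0.07 with the 6 libraries as separate samples), with sums of 337 to 955 FPKM in LTBP4-CKO and 523 to 1047 FPKM in WT. In the opposite direction, estimates were higher for all 10 cardiomyocyte markers (median 1.15), for 6 of 7 endothelial markers (median 0.35, 4 of them without overlap) and for both tested neutrophil markers (median 1.01). Without overlap were also 3 of the 9 fibroblast and 3 of the 6 atrial markers, lower, and 1 of the 10 cardiomyocyte markers, higher. Over all genes tested, 11.5% were lower and 10.4% higher without overlap. The part of these markers in the *Nupr1* difference was not tested. In RNA of mixed tissue, fewer cells of a type, less RNA per cell and a difference in the tissue taken cannot be told apart.

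*Atf4* was at 181, 197 and 187 FPKM in LTBP4-CKO and at 167, 144 and 177 FPKM in WT (chr15:80255184-80257545, plus strand). The groups did not overlap, but the nearest libraries were only a few FPKM apart, and the log2 difference was 0.24 (SE 0.44, 95% interval −0.81 to 1.29). *Atf5*, which encodes a related bZIP factor that regulates mitochondrial chaperone and protease genes in mammals, was at 84.8, 67.1 and 63.3 FPKM in LTBP4-CKO and at 116, 115 and 142 FPKM in WT. It was thus lower in every LTBP4-CKO library, with a log2 difference of −0.70 (SE 0.41, 95% interval −1.69 to 0.28). The deposited locus of *Atf5* (chr7:44812256-44849079, minus strand) spans neighbouring genes, its exons overlap those of *Nup62* and *Il4i1* on the opposite strand, and strand was not stated for the libraries, so its reads may include theirs.

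*Ddit3*, the gene for CHOP, a factor that promotes cell death under prolonged stress, was at 113, 103 and 91.2 FPKM in LTBP4-CKO and at 115, 122.8 and 107 FPKM in WT. The groups overlapped, and the log2 difference was −0.16 (SE 0.41, 95% interval −1.14 to 0.83). Its exons overlap those of *Mars* on the opposite strand, and the table gives both genes the same locus (chr10:127290793-127311786). *Cebpb*, whose product is a dimer partner of ATF4, was at 43.0 to 49.96 FPKM in LTBP4-CKO and at 48.4 to 60.9 FPKM in WT, with a log2 difference of −0.25 (SE 0.37). In WT hearts *Nupr1* was the most abundant of the 37 transcripts by mean FPKM, followed by *Atf4*, *Ddit4*, *Atf5* and *Ddit3*, and in LTBP4-CKO hearts it was in place 3, after *Atf4* and *Ddit4*.

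Of the feedback and stress effectors, *Chac1* had the lowest p. It encodes an enzyme that degrades glutathione, and was at 3.11, 1.17 and 2.20 FPKM in LTBP4-CKO and at 3.34, 9.65 and 4.00 FPKM in WT. The highest LTBP4-CKO library nearly reached the lowest WT library, and the log2 difference was −1.09 (SE 0.53, 95% interval −2.35 to 0.17). This is a low transcript, with about 9.4 to 57.7 fragments in LTBP4-CKO libraries and 25.0 to 48.5 in WT libraries. *Trib3*, which encodes a pseudokinase that dampens ATF4 activity, overlapped between genotypes, at 11.6, 15.5 and 13.99 FPKM in LTBP4-CKO and at 12.7, 19.3 and 13.7 FPKM in WT (log2 difference −0.27, SE 0.37). *Ddit4* and *Sesn2*, which encode inhibitors of mTORC1 signalling, also overlapped. The level of *Ddit4* was 125 to 162 FPKM in LTBP4-CKO and 88.3 to 173 FPKM in WT, and that of *Sesn2* was 1.12 to 2.91 FPKM in LTBP4-CKO and 0.916 to 1.73 FPKM in WT.

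The stress hormone genes of the pathway were low in every library. *Gdf15*, which encodes a hormone that acts on a brainstem receptor, was at 7.75, 5.41 and 2.77 FPKM in LTBP4-CKO and at 5.59, 8.02 and 4.52 FPKM in WT. The groups overlapped, with a log2 difference of −0.15 (SE 0.44). *Fgf21*, which encodes a metabolic hormone, was listed at 1.01, 0 and 0 FPKM in LTBP4-CKO and at 0.540, 0.402 and 0.261 FPKM in WT, about 9, 0 and 0 fragments against 2, 1 and 1. At this depth a difference in *Fgf21* was not detectable. *Vldlr*, a receptor for triglyceride-rich lipoproteins, split within both genotypes. It was at 24.9, 6.99 and 7.14 FPKM in LTBP4-CKO and at 4.59, 17.2 and 5.15 FPKM in WT, so that LTBP4-CKO library 1 and WT library 2 were high and the other 4 were low (log2 difference 0.48, SE 0.73).

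Among amino acid transporters, *Slc7a5* encodes the light chain of the large neutral amino acid exchanger, which carries leucine into cells, and *Slc3a2* encodes its heavy chain. *Slc7a5* was at 3.36, 12.8 and 8.98 FPKM in LTBP4-CKO and at 1.44, 1.94 and 2.33 FPKM in WT (chr8:121881146-121907686, minus strand). Every LTBP4-CKO library was above every WT library, although the 2 LTBP4-CKO samples lay far apart. The means were 7.12 ± 5.32 FPKM in LTBP4-CKO and 1.91 ± 0.037 FPKM in WT (SD, n = 2 samples each). That WT SD is small because the average of WT libraries 1 and 3 lay beside library 2, and the WT libraries themselves differed more. In WT this is a low transcript, at about 25.9, 23.0 and 44.0 fragments in libraries 1 to 3. The log2 difference was 1.31 (SE 0.55, 95% interval −0.01 to 2.62, unadjusted p = 0.052 by limma). Against the WT mean the log2 difference was 0.58 in LTBP4-CKO library 1 and 2.03 in libraries 2 and 3. The heavy chain gene did not show the same pattern. *Slc3a2* was at 36.3, 54.0 and 57.2 FPKM in LTBP4-CKO and at 58.2, 55.5 and 56.9 FPKM in WT, with a log2 difference of −0.32 (SE 0.40). *Slc7a11*, the cystine transporter gene, was near the limit of detection at 0.096, 0.038 and 0.033 FPKM in LTBP4-CKO and at 0.080, 0.153 and 0.057 FPKM in WT, which is 2 to 12 fragments in LTBP4-CKO libraries and 3 to 5 in WT libraries.

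**Figure D2:**
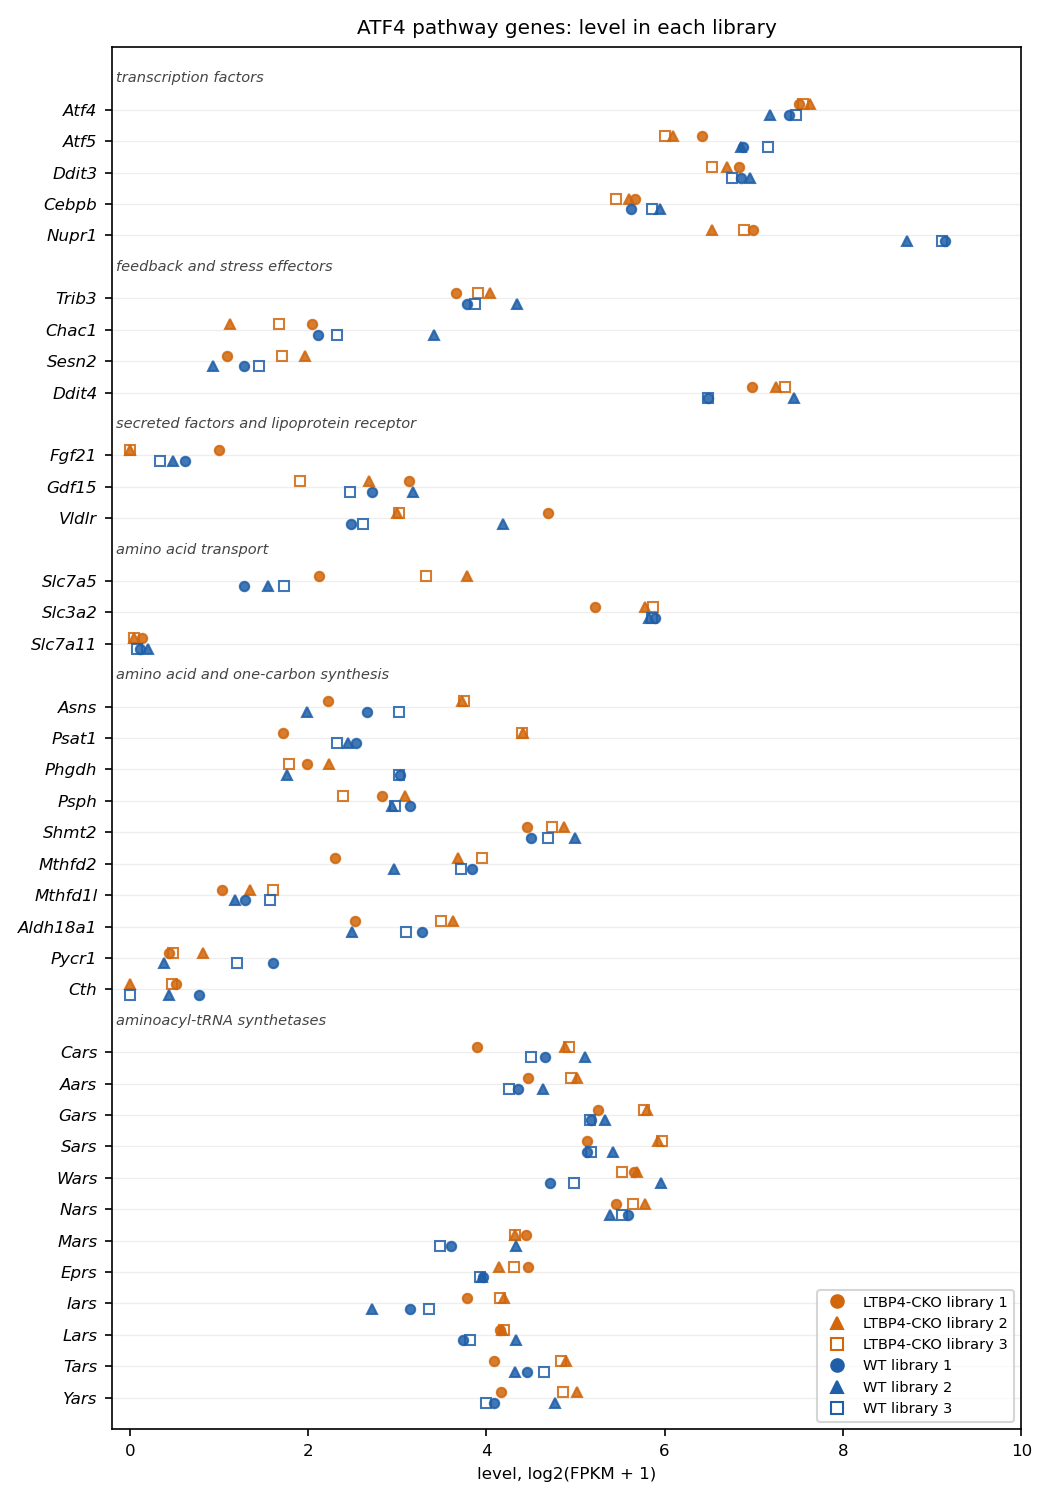
Level of the 37 genes in each library, in log2(FPKM + 1), by role, with LTBP4-CKO libraries in orange above WT libraries in blue. *Nupr1* shows the widest gap between genotypes, *Slc7a5* and *Iars* lie higher in all 3 LTBP4-CKO libraries, and *Psat1* and *Asns* are high in LTBP4-CKO libraries 2 and 3 and not in library 1.

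*Psat1* and *Asns*, of serine and asparagine synthesis, separated the LTBP4-CKO samples from each other rather than the genotypes. *Psat1* encodes the transaminase of the serine pathway, and was at 2.30, 20.3 and 20.0 FPKM in LTBP4-CKO and at 4.83, 4.45 and 3.99 FPKM in WT (chr19:15905123-15925059, minus strand). LTBP4-CKO library 1 was below every WT library and libraries 2 and 3 were above every one. Against the WT mean, *Psat1* differed by −0.72 on the log2 scale in library 1 and by 1.96 in libraries 2 and 3, and the estimate over both samples was 0.62 (SE 0.82, 95% interval −1.34 to 2.59). *Asns*, the asparagine synthetase gene, was at 3.66, 12.3 and 12.4 FPKM in LTBP4-CKO and at 5.33, 2.96 and 7.10 FPKM in WT (chr6:7675171-7693182, minus strand). It was within the WT range in library 1 (−0.20 against the WT mean) and above it in libraries 2 and 3 (1.32), with an overall log2 difference of 0.56 (SE 0.60).

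The other 2 enzymes of the serine pathway did not follow *Psat1*. *Phgdh*, whose product catalyses the first step, was at 2.97, 3.70 and 2.44 FPKM in LTBP4-CKO and at 7.21, 2.39 and 7.13 FPKM in WT. Here WT libraries 1 and 3 stood above the other 4 libraries, and the log2 difference was −0.39 (SE 0.52). *Psph*, whose product catalyses the last step, was at 4.27 to 7.48 FPKM in LTBP4-CKO and at 6.67 to 7.85 FPKM in WT (log2 difference −0.20, SE 0.34).

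In mitochondrial one-carbon metabolism, *Mthfd2* encodes the dehydrogenase and cyclohydrolase of the folate pathway and was at 3.93, 11.8 and 14.4 FPKM in LTBP4-CKO and at 13.3, 6.82 and 12.2 FPKM in WT. LTBP4-CKO library 1 was again lowest (−1.07 against the WT mean), libraries 2 and 3 were within or just above the WT range (0.45), and the overall log2 difference was −0.31 (SE 0.58). *Shmt2*, the mitochondrial serine hydroxymethyltransferase gene, was at 20.9 to 28.3 FPKM in LTBP4-CKO and at 21.6 to 30.8 FPKM in WT, and *Mthfd1l* was at 1.06 to 2.04 FPKM in LTBP4-CKO and at 1.26 to 1.98 FPKM in WT. Both overlapped between genotypes. *Aldh18a1*, which encodes the first enzyme of proline synthesis, was at 4.75, 11.4 and 10.2 FPKM in LTBP4-CKO and at 8.72, 4.62 and 7.55 FPKM in WT. *Pycr1*, of the last step of proline synthesis, had 13.0, 11.9 and 7.0 fragments in LTBP4-CKO and 29.8, 3.0 and 20.0 in WT, and *Cth*, of cysteine synthesis, had at most 9.1 fragments in LTBP4-CKO and 6.0 in WT. Of the 8 tested genes of this group, 3 had higher estimates and the median was −0.11.

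The split within the LTBP4-CKO genotype differed by role, and the WT samples split by role as well. The mean of LTBP4-CKO libraries 2 and 3 was above library 1 for 22 of the 33 members (66.7%), against 47.9% of all genes tested. These were 7 of the 8 synthesis genes, 9 of the 12 synthetases, 3 of the 4 effectors and both tested transporters, but 1 of the 5 transcription factors and 0 of the 2 tested secreted factor and receptor genes. The median log2 gap (libraries 2 and 3 minus library 1) was 0.74 for synthesis genes, 0.45 for synthetases and −0.04 over all genes tested. Within WT, the median gap (libraries 1 and 3 minus library 2) was 0.48 for synthesis genes, −0.30 for synthetases and 0.00049 over all genes tested. Against the WT mean, the median of the members was −0.17 in library 1 and 0.25 in libraries 2 and 3, and over all genes tested the medians were 0.015 and −0.0016. The summed level of the 10 synthesis genes was 46.5, 97.6 and 92.3 FPKM in LTBP4-CKO and 73.0, 60.7 and 72.9 FPKM in WT, so the LTBP4-CKO samples lay on either side of all WT libraries. Between the same LTBP4-CKO libraries, cardiomyocyte markers summed to 68290, 21862 and 21572 FPKM, atrial markers to 13932, 290 and 279 FPKM, fibroblast markers to 3640, 1059 and 1072 FPKM and endothelial markers to 1150, 2264 and 2246 FPKM. Library 1 also had the greatest depth, at about 14100000 fragments against 5900000 and 6700000. Whether tissue composition or depth has a part in this split was not tested.

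**Figure D3:**
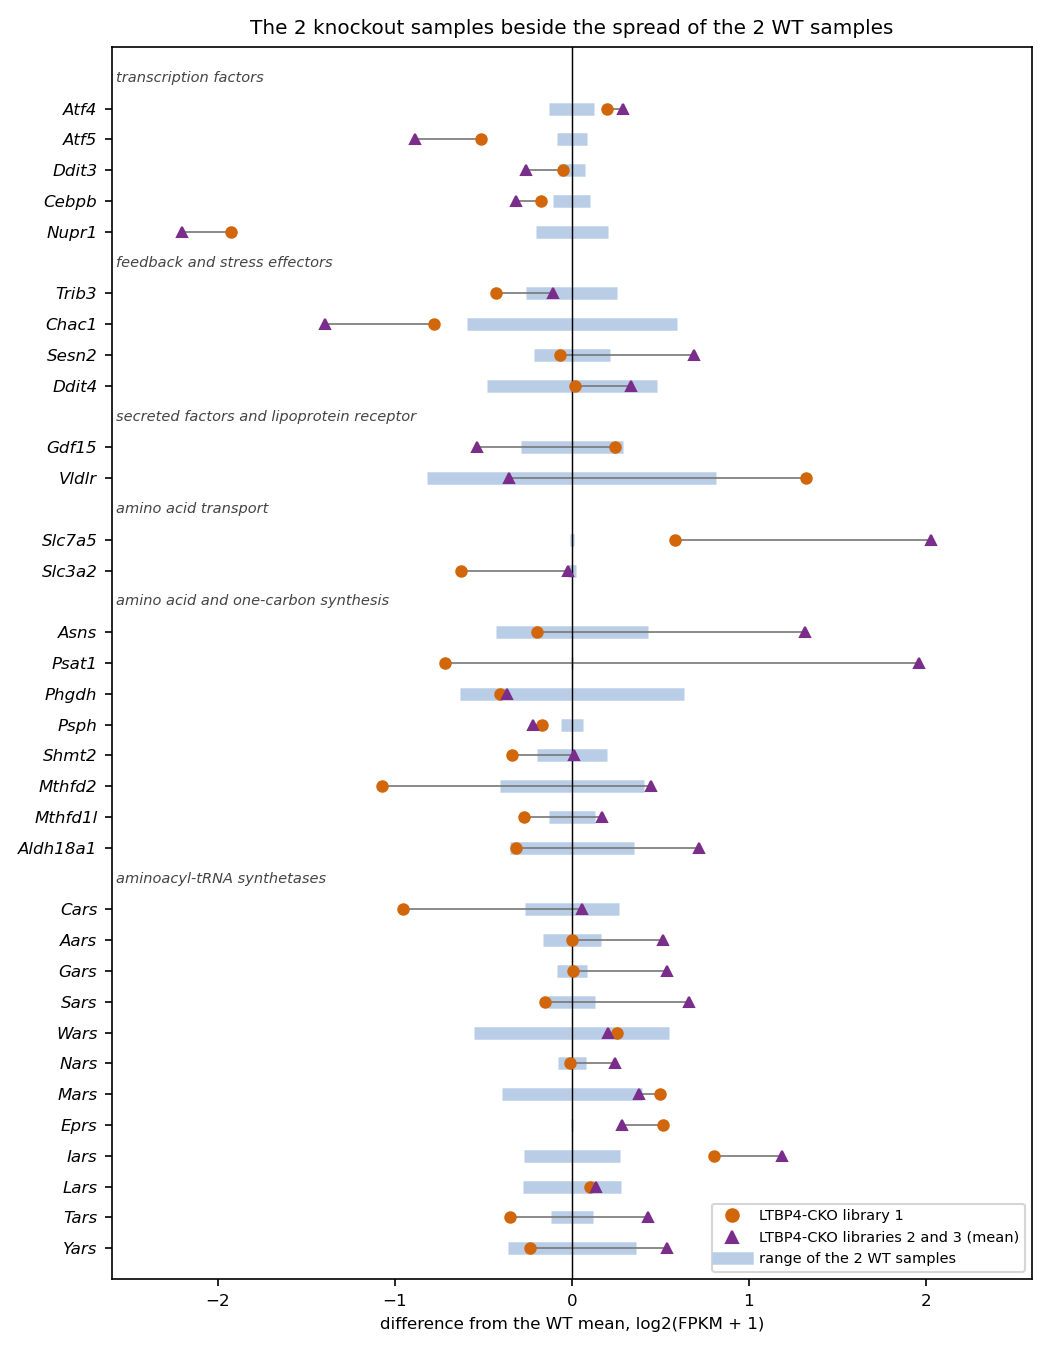
Difference of each LTBP4-CKO sample from the WT mean (log2(FPKM + 1) scale) for the 33 tested genes, with library 1 as a circle, the mean of libraries 2 and 3 as a triangle, and the range of the 2 WT samples as a bar, which is too narrow to see for *Psat1* and *Eprs*. The 2 LTBP4-CKO samples lie on opposite sides of the WT mean for *Psat1* (−0.72 and 1.96) and *Mthfd2* (−1.07 and 0.45), and on the same side for *Nupr1* (−1.93 and −2.20) and *Iars* (0.80 and 1.19).

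The aminoacyl-tRNA synthetases, which load amino acids onto their tRNAs, had mostly higher estimates, none of them past the test. Of the 12 genes, 11 had higher estimates in LTBP4-CKO and 1, *Cars*, a lower one, with a median log2 difference of 0.24, whereas 8 of the 21 other tested members had higher estimates, with a median of −0.16, and 54.2% of all genes tested did. Scaled to equal totals, 8 of the 12 were higher (median 0.11) and 8 of the 21 others (median −0.29), with *Nars*, *Lars* and *Tars* turning to the other side of 0. None of the 12 passed (limma, adjusted p = 0.999), and 1 had an unadjusted p under 0.05. The summed level of the 12 was 303, 409 and 396 FPKM in LTBP4-CKO and 268, 344 and 271 FPKM in WT, so LTBP4-CKO library 1 lay below WT library 2. In LTBP4-CKO library 1 alone the median difference from the WT mean was 0.00, and in libraries 2 and 3 it was 0.40.

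*Iars*, the isoleucyl-tRNA synthetase gene, had the lowest p of the group (chr13:49682130-49734267, plus strand). It was at 12.8, 17.3 and 16.7 FPKM in LTBP4-CKO and at 7.82, 5.56 and 9.27 FPKM in WT. All 3 LTBP4-CKO libraries were above all 3 WT libraries, in both LTBP4-CKO samples. The means were 14.9 ± 2.99 FPKM in LTBP4-CKO and 7.05 ± 2.11 FPKM in WT (SD, n = 2 samples each), and the log2 difference was 1.00 (SE 0.38, unadjusted p = 0.036 by limma, adjusted p = 0.999). *Eprs*, whose product charges both glutamate and proline tRNAs, was at 21.1, 16.7 and 18.8 FPKM in LTBP4-CKO and at 14.6, 14.5 and 14.2 FPKM in WT (chr1:185363095-185428355, plus strand). Those groups did not overlap either, but the difference was smaller, at 0.40 (SE 0.34, 95% interval −0.42 to 1.22).

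The other 10 synthetases overlapped between genotypes, and their estimates ran from −0.45 for *Cars* to 0.44 for *Mars*. For *Gars*, *Sars* and *Aars*, of glycine, serine and alanine, LTBP4-CKO libraries 2 and 3 were above all WT libraries and library 1 was within the WT range. *Gars* was at 37.1, 54.8 and 53.5 FPKM in LTBP4-CKO and at 35.04, 39.3 and 34.8 FPKM in WT, and *Sars* was at 34.1, 59.8 and 61.6 FPKM in LTBP4-CKO and at 34.1, 41.8 and 35.2 FPKM in WT. *Wars* and *Mars*, of tryptophan and methionine, instead varied within WT. *Wars* was at 49.6, 50.5 and 45.1 FPKM in LTBP4-CKO and at 25.1, 61.1 and 30.7 FPKM in WT, with WT library 2 above every other library.

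*Aars* shares exon sequence with *Exosc6* on the same strand, and exons of *Cars*, *Yars*, *Psph*, *Shmt2* and *Cebpb* overlap annotated genes on the opposite strand, so the values of these genes may hold reads of their neighbours.

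The rest of the pathway was described by lists of further genes. Of the 16 genes for eIF2 kinases, eIF2 subunits and their regulators, 0 passed, 11 had higher estimates and the median was 0.20 (9 of 16 and 0.07 when scaled to equal totals). Against the WT mean the median was 0.03 in LTBP4-CKO library 1 and 0.21 in libraries 2 and 3. Transcripts of the 4 eIF2 kinases overlapped between genotypes, with *Eif2ak3* (PERK) at 6.40, 7.21 and 6.92 FPKM in LTBP4-CKO and at 6.91, 5.11 and 8.84 FPKM in WT. *Ppp1r15b*, which encodes the constitutive eIF2 phosphatase subunit, had the lowest p of the list, at 13.4, 21.7 and 22.5 FPKM in LTBP4-CKO and at 11.2, 12.4 and 11.5 FPKM in WT (log2 difference 0.50, SE 0.38). *Ppp1r15a* (GADD34), its stress-induced counterpart, had an estimate of the opposite sign, at 33.3, 23.0 and 23.4 FPKM in LTBP4-CKO and at 42.4, 32.4 and 45.4 FPKM in WT (−0.43, SE 0.39). *Eif2s2*, for the beta subunit of eIF2, and *Oma1*, for the mitochondrial protease that relays mitochondrial stress to eIF2 phosphorylation, were higher in all 3 LTBP4-CKO libraries, with differences of 0.45 and 0.43.

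Of 16 other ATF4 partners and targets, 15 were tested, 0 passed, 9 had higher estimates, and the median was 0.07 (6 of 15 and −0.05 when scaled to equal totals). *Slc7a1*, the arginine and lysine transporter gene, had the lowest p. It was at 5.33, 9.28 and 8.55 FPKM in LTBP4-CKO and at 2.28, 1.78 and 2.45 FPKM in WT, without overlap, and the log2 difference was 1.37 (SE 0.42, 95% interval 0.37 to 2.38, unadjusted p = 0.015 and adjusted p = 0.999 by limma). *Slc38a2*, a neutral amino acid transporter gene, was also higher in each LTBP4-CKO library, at 69.8, 61.3 and 65.3 FPKM there and at 46.3, 36.7 and 44.3 FPKM in WT (0.69, SE 0.38). In the opposite direction, *Slc1a5*, the glutamine exchanger gene, was at 64.1, 89.1 and 86.1 FPKM in LTBP4-CKO and at 118.9, 122.2 and 122.9 FPKM in WT (−0.69, SE 0.41). Amino acid transporters of the pathway thus had estimates in both directions. *Stc2*, a secreted glycoprotein gene, was at 5.67, 9.67 and 9.96 FPKM in LTBP4-CKO and at 29.1, 9.31 and 29.0 FPKM in WT (−1.05, SE 0.57), where WT libraries 1 and 3 set the difference.

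Cytosolic synthetase genes outside the 12 also had mostly higher estimates. Of 11 tested, including scaffold proteins of the multisynthetase complex, 10 had higher estimates with a median of 0.28 (8 of 11 and 0.16 when scaled to equal totals), and 0 passed. *Rars* and *Aimp2* did not overlap between genotypes (0.38 and 0.31), while *Eef1e1* (0.66) and *Aimp1* (0.36) did. Of 17 mitochondrial synthetase genes, 12 had higher estimates, with a median of 0.23 (10 of 17 and 0.14 when scaled to equal totals), and 0 passed. Their median against the WT mean was 0.35 in LTBP4-CKO library 1 and 0.13 in libraries 2 and 3. *Lars2*, the mitochondrial leucyl-tRNA synthetase gene, had the lowest p of that list and a lower estimate, at 32.7, 24.6 and 24.5 FPKM in LTBP4-CKO and at 166, 50.8 and 142 FPKM in WT (−1.61, SE 0.58, unadjusted p = 0.029 and adjusted p = 0.999 by limma). Among the others, *Fars2* (0.84) and *Sars2* (0.45) were higher in all 3 LTBP4-CKO libraries, and *Nars2* overlapped (0.70).

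Mitochondrial chaperone and protease genes, which belong to the mitochondrial unfolded protein response, had higher estimates in 9 of 10, with a median of 0.34 (7 of 10 and 0.21 when scaled to equal totals), and 0 passed. Against the WT mean the median was 0.76 in LTBP4-CKO library 1 and 0.00062 in libraries 2 and 3. Cardiomyocyte markers, higher in 10 of 10 estimates, were also highest in that library, with the sums given above and medians of 2.27 in library 1 and 0.18 in libraries 2 and 3, and their part in these values was not tested. *Hspa9*, the mitochondrial HSP70 gene, was at 158, 67.7 and 65.0 FPKM in LTBP4-CKO and at 43.5, 53.7 and 42.4 FPKM in WT (1.08, SE 0.52). *Hspd1*, the HSP60 gene, was at 108, 47.9 and 52.9 FPKM in LTBP4-CKO and at 43.7, 35.1 and 39.9 FPKM in WT (0.93, SE 0.48). Both were higher in every LTBP4-CKO library, and so was *Trap1* (0.59), whereas *Afg3l2* overlapped (0.51). Here library 1 was the highest, the reverse of the order seen for *Psat1* and *Asns*, and library 1 was above the mean of libraries 2 and 3 for all 10 genes of this list.

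For the ATF6 and XBP1 arms of the endoplasmic reticulum response, 15 of 16 genes were tested, 10 had higher estimates, the median was 0.15 and 0 passed. Scaled to equal totals the count was 8 of 15 with a median of 0.02, and with the 6 libraries as separate samples it was 6 of 15 with a median of −0.02. *Atf6* (0.65), *Edem1* (0.49), *Hyou1* (0.41) and *Calr* (−0.35) had the lowest p, and of these only *Hyou1* did not overlap. Of 15 other folate, glycine and proline enzyme genes, 13 were tested, 5 had higher estimates, the median was −0.14 and 0 passed. *Amt* (−0.78), *Mthfd1* (0.54) and *Pycrl* (0.45) had the lowest p in it, and of these *Mthfd1* was higher in all 3 LTBP4-CKO libraries.

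**Figure D4:**
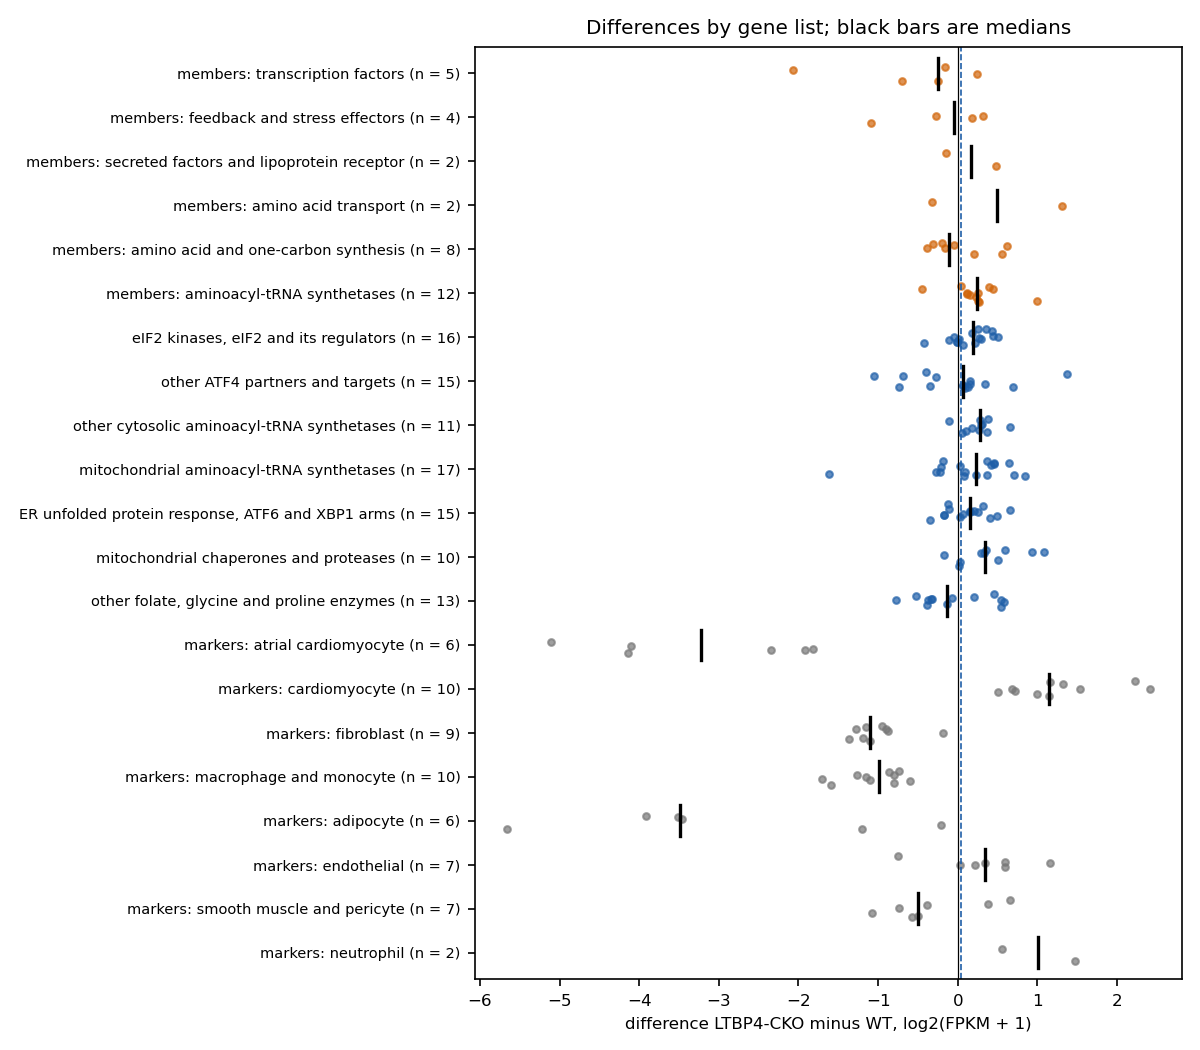
Log2 difference (LTBP4-CKO minus WT) of each tested gene in the roles of the members (orange), the further pathway lists (blue) and the cell type marker lists (grey), with black bars at medians and a dashed line at the median of all genes tested (0.04). Pathway medians lie between −0.25 and 0.49, and medians of atrial (−3.22), adipocyte (−3.49), fibroblast (−1.10), macrophage (−0.99) and cardiomyocyte (1.15) markers lie farther from 0.

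Libraries 3 of both genotypes have later record numbers than the other 4, and they are the near-duplicates of LTBP4-CKO library 2 and WT library 1. Record numbers alone do not show how or when libraries were sequenced. Within the earlier numbers the median log2 difference of the 33 members was 0.13, and between the 2 later libraries it was 0.26. *Nupr1* differed by −2.17 in the earlier set and by −2.22 in the later one, and *Iars* by 1.07 and 0.79. Since each later library nearly duplicates an earlier one, the later set is not an independent repeat.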

How the data were processed

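Heart RNA was isolated with Trizol and sequenced after TruSeq RNA library preparation, per the labels' protocols. Values in the deposited table are FPKM, per the file headers, made by the authors with Cufflinks on mm10, per the submitters' processing notes. Cufflinks version, aligner and annotation were not given in the sources. The table lists 23995 genes, and 1 further line held no value. Start positions were raised by 1, since 12453 starts then equalled a GENCODE M21 exon start, against 1141 as printed.

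FPKM values are not counts, so genes with at least 1 FPKM in at least 3 libraries were tested on log2(FPKM + 1), a scale that understates changes of low genes, with limma 3.58.1 in R 4.3.3 (trend and robust, two-sided, Benjamini-Hochberg, threshold 0.05). The 2 close pairs were averaged as FPKM, which left 2 residual degrees of freedom. SDs are over the 2 samples of a genotype. Depth came from 2966 single-transcript genes over 1000 bases. Of their low values 73.4% to 79.0% lay within 0.15 of a whole number of fragments, so fragment numbers are approximate. Fragment numbers of members assume the longest GENCODE M21 transcript of each gene, and are too high where a shorter one prevails. The script was tested on simulated data for the recovery of set differences. The simulated spread was not taken from these samples, so that test does not show what 2 samples per genotype can detect.

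Members and lists were chosen with earlier results of these data known. Values per library are given for members whose genotypes did not overlap and for *Atf4*, *Atf5*, *Ddit3*, *Trib3*, *Asns*, *Psat1*, *Phgdh*, *Mthfd2*, *Fgf21*, *Gdf15*, *Slc7a5* and *Slc7a11*, and for up to 4 genes of each further list by lowest p. Per-library values of other members, and *Eif2ak3*, were added after their values were seen. Adjustment is over all 12485 genes, and lists are described by counts and medians without a test. Alternatives were other pseudocounts, filters, scalings and ways of treating the close pairs, and leaving out libraries. Some genes and sequences are not reported here.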

Additional observations from a re-analysis of the deposited data

How the results depend on the processing

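Of the 33 tested members 0 were called under every alternative run, and 15 kept their direction throughout, among them *Nupr1* (−2.27 to −1.86), *Iars* (0.73 to 1.27), *Slc7a5* (0.58 to 2.03), *Atf5* (−0.89 to −0.52), *Chac1* (−1.68 to −0.49) and *Atf4* (0.11 to 0.37). The number of genes called in the whole table, 1, became 2 with the 6 libraries as separate samples and 0 with no filter on low values, and ran from 1 to 12 when libraries or samples were left out, with 12 without WT library 2 and 5 without LTBP4-CKO libraries 2 and 3. Over the same omissions the members' median ran from −0.17 to 0.25 and their number of higher estimates from 12 to 22. With 6 separate samples 5 members had an unadjusted p under 0.05 (*Atf5*, *Nupr1*, *Chac1*, *Slc7a5* and *Iars*, lowest limma adjusted p = 0.094), beside 1879 genes in all. Scaling to equal totals reversed *Nars* (−0.0147), *Lars* (−0.0073) and *Tars* (−0.0883). Leaving out libraries or samples reversed 18 members at least once, over ranges of −0.066 to 0.69 for *Sesn2*, −0.31 to 0.66 for *Ddit4*, −0.54 to 0.24 for *Gdf15*, −0.36 to 1.33 for *Vldlr*, −0.20 to 1.32 for *Asns*, −0.72 to 1.96 for *Psat1*, −1.02 to 0.25 for *Phgdh*, −0.36 to 0.0336 for *Shmt2*, −1.07 to 0.45 for *Mthfd2*, −0.27 to 0.17 for *Mthfd1l* and −0.32 to 0.72 for *Aldh18a1*. Among synthetases the ranges were −0.96 to 0.0585 for *Cars*, −0.15 to 0.66 for *Sars*, −0.32 to 0.78 for *Wars*, −0.0132 to 0.25 for *Nars*, −0.16 to 0.40 for *Lars*, −0.35 to 0.43 for *Tars* and −0.24 to 0.53 for *Yars*. The cause was not tested beyond these omissions, in which a lone sample is assumed to vary like the others. Libraries of the 2 genotypes with the same number had deviations that correlated at 0.12, 0.12 and −0.10 across genes. The close pairs largely fix the signs of these correlations, so they cannot show if the numbers pair the samples. With the replicate block, 1 gene and 0 members were called, 4 members had an unadjusted p under 0.05, and the members' median was 0.22. Depth limits *Fgf21*, *Slc7a11*, *Cth*, *Pycr1* and *Chac1*. It also limits *Sesn2*, *Phgdh*, *Mthfd1l*, *Asns* and *Slc7a5*, at about 10.7, 14.2, 15.8, 19.0 and 23.0 fragments in WT library 2. *Gdf15* had about 23.3 fragments in LTBP4-CKO library 3. Having 2 samples per genotype limits every member.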

Other observations

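The pattern of *Psat1*, high in LTBP4-CKO libraries 2 and 3 and low in library 1, was also present in *Tyms*, the thymidylate synthase gene, which was chosen after its values were seen. *Tyms* was at 0.796, 14.3 and 14.4 FPKM in LTBP4-CKO and at 2.69, 2.86 and 2.04 FPKM in WT. It did not pass by limma (log2 difference 0.54, SE 0.94). Library 1 was below libraries 2 and 3 by more than the spread of the 3 WT libraries.

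*Atf3*, a stress-induced partner of ATF4 that was also chosen after its values were seen, was at 11.7, 21.4 and 18.4 FPKM in LTBP4-CKO and at 47.5, 15.03 and 43.6 FPKM in WT. WT libraries 1 and 3 stood above the other 4 libraries, as they did for *Phgdh* and *Stc2*, and the log2 difference was −0.74 (SE 0.58). The same 2 libraries hold the atrial marker sums of 37551 and 37639 FPKM, against 1587 FPKM in WT library 2, and the part of those markers in the *Atf3* values was not tested.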
